A study of Mus musculus with 12 samples.

Results

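Regulatory T cells (Treg) sorted from venous thrombi were compared with Treg sorted from the spleens of the same kind of mouse, over all genes. The members are the 4 thrombus and 4 spleen libraries of a series of 12 libraries, and they were taken by tissue alone, without regard to any measured value. The other 4 libraries, from vein wall, enter only as a further tissue in the fit that estimates the spread. All mice were DEREG mice on the C57BL/6 background (transgene Foxp3-DTR/EGFP, line 23.2Spar), in which a transgene driven by Foxp3 control sequences encodes a diphtheria toxin receptor fused to the green fluorescent protein EGFP. In all of them the inferior vena cava had been ligated, which reduces flow and gives a model of deep vein thrombosis, and tissue was taken at day 14 after thrombus induction. No treatment other than the ligation is named in the labels for either group, and the labels name no unligated mice, so the spleen group is spleen of thrombotic mice. Live cells positive for CD45, CD4, Foxp3-driven EGFP and CD69 were sorted in each tissue, so both groups had been selected for the activation marker CD69. EGFP reports the transgene and not the endogenous Foxp3 gene. The labels give neither the age of the mice nor whether a library holds 1 mouse or pooled mice, so p-values measure only the spread between these samples, part of which may be technical.

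Treg hold other lymphocytes in check, and their identity rests on the transcription factor Foxp3. Treg that live outside lymphoid organs are known to carry a tissue programme on top of this identity, with the IL-33 receptor ST2 (gene Il1rl1) and the repair factor amphiregulin (gene Areg). Antigen receptor signals switch on immediate early genes within minutes to hours, among them the nuclear receptors of the Nr4a family and the AP-1 subunits, and the mitogen-activated protein kinase (MAPK) phosphatases and NF-kB inhibitors that follow shut these signals down again. A thrombus that is not dissolved is organised over days to weeks by leukocytes and ingrowing vessel wall cells, and Treg are among the cells found in it.

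Spleen 3 and spleen 4 differed far less than most pairs of libraries of a tissue (mean chi-square per gene 3.95, with 2.55 for vein wall 3 and 4 and 97.2 to 358 in the other 16 pairs), so their reads were summed and counted as 1 sample, spleen 3-4. This left 3 spleen samples against 4 thrombus samples. Total exon reads were 12978484, 20283454, 55386086 and 21775744 in spleen 1 to 4, and 14248733, 22038420, 9719151 and 10852343 in thrombus 1 to 4. The deposited files came in 3 layouts that differ in their gene models. Spleen 1 and thrombus 1 share layout 1, spleen 2 and thrombus 2 share layout 2, and the others have layout 3. The first principal component of log2 CPM (reads scaled to a common library size) held 27.6% of the variance and placed spleen 2 and thrombus 2 (-88.4 and -123) apart from the other 5 samples (13.2 to 56.9). The second, with 21%, ran from -80.8 to -14.8 in spleen and from -29.8 to 79.0 in thrombus, and only spleen 3-4 and thrombus 1 overlapped on it. Ddx3y, a Y-linked gene, had no read in spleen 1 and thrombus 1 and 78.9 to 158 CPM in the other 5 samples, so the layouts also differ in the sex of the mice, and layout and sex cannot be told apart. Each layout holds both tissues, and a second fit with the layout as a covariate, called the layout fit here, is given beside the results.

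The genes of the sort were present in every sample. CPM of Foxp3 were 556, 407 and 685 in spleen 1, 2 and 3-4 and 565, 279.7, 537 and 717 in thrombus 1 to 4, which overlapped. Cd4 stood at 159, 134 and 119.6 CPM in spleen and 178, 108, 89.4 and 352 CPM in thrombus. Markers of other cell types stood apart in thrombus 2. Summed over a list of 16 macrophage and monocyte genes, it held 1910 CPM, against 89.4 to 128 in the other 3 thrombus samples and 78.2 to 314 in spleen, with Lyz2 at 27.8, 1371, 40.7 and 54.7 CPM in thrombus. Over 16 dendritic cell genes it held 13300 CPM, against 2880 to 4910 in the other thrombus samples and 1680 to 3070 in spleen, led by Cd74, the invariant chain gene of MHC class II. Over 13 mast cell, basophil and innate lymphoid genes it held 102 CPM, nearly all of it the cytokine gene Il5, against 2.73 to 8.79 and 1.31 to 6.16. Over 15 B and plasma cell genes it held 1140 CPM, against 400 to 670 and 309 to 574. Over 14 CD8 T and NK cell genes it held 1190 CPM, against 280 to 408 and 279 to 661. Of the 14 B and plasma cell genes tested, 12 had a log2 fold change above 0 (all genes: 52.1%), and none was called. Digestive enzyme genes of the pancreas summed to 298 and 650 CPM in thrombus 3 and 4, 101 CPM in thrombus 2 and 26.2 CPM in thrombus 1, against 23.0 to 122 CPM in spleen. Most of the spleen sum was Cela1, with 20.7, 113 and 22.3 CPM in spleen and 17.1, 16.5, 29.7 and 44.8 CPM in thrombus. Amy2a5 had at most 0.654 CPM in spleen and 0.918, 42.9, 29.2 and 116 CPM in thrombus 1 to 4. Haemoglobin and other red cell genes ranged from 11.3 to 2090 CPM in thrombus and from 65.3 to 1860 CPM in spleen, with no order between the tissues. Fibroblast genes summed to 29.7 to 73.4 CPM in thrombus and 32.2 to 34.5 CPM in spleen, mostly from Gsn and Serpinf1. Of the 11 fibroblast genes tested, 10 had a log2 fold change above 0 (all genes: 52.1%). In 5 of them, thrombus lay above spleen without overlap (all genes: 2.51%), and none was called. The collagen genes Col1a2 and Col3a1 and the matrix gene Fbln2 had no read in spleen and reads in every thrombus sample (0.215 to 5.97, 0.284 to 2.54 and 0.322 to 5.11 CPM), and Dcn had 2 reads in spleen and 21 to 162 in each thrombus sample. The part of these cell types in the results below was not tested. In bulk samples, a lower value from fewer cells of a type and one from less RNA per cell cannot be told apart.

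**Figure D1:**
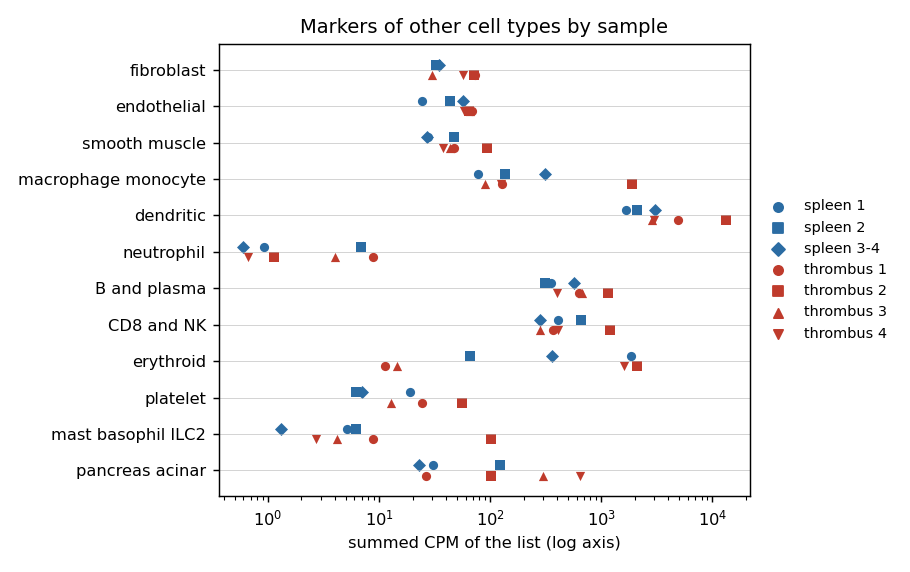
Summed CPM of 12 marker lists of other cell types (log axis) in the 3 spleen samples (blue) and 4 thrombus samples (red), 1 symbol per sample. Thrombus 2 (square) is the highest thrombus sample in the macrophage, dendritic and mast cell lists, and thrombus 3 and 4 (triangles) are the highest samples in the pancreas list.

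Over the whole transcriptome, few genes passed the test, and those that did were higher in thrombus. Of 11462 genes tested, 17 passed as higher in thrombus and none as lower (edgeR quasi-likelihood F test, Benjamini-Hochberg adjusted p below 0.05). They were the prohormone convertase gene Pcsk1, the trypsinogen gene Try4, the nuclear receptors Nr4a1 and Nr4a3, the transcriptional regulators Csrnp1, Crem, Tgif1 and Ifrd1, the histone chaperone gene Spty2d1, the stress gene Gadd45b, the chemokine receptors Ccr7 and Ccr2, the trafficking gene Vps37b, the mitochondrial gene Coq10b, the lipid droplet gene Hilpda, the kinase gene Sgk1 and the microtubule regulator Stmn1. The 17 genes are 0.148% of those tested. At an unadjusted p below 0.05 the test gave 477 genes, or 4.16%, of which 344 were higher and 133 lower. Log2 fold changes of the 17 ranged from 1.99 to 12.2 with a median of 2.62, against a median of 0.03 and a 5% to 95% range from -1.30 to 2.09 over all genes.

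With the layout as a covariate, 50 genes were called higher and 3 lower (0.436% and 0.0262% of those tested, 0.462% in all), and these include all 17. DESeq2, without the covariate, called 137 higher and 9 lower, again with all 17. In all 17, the lowest thrombus sample lay above the highest spleen sample, and the difference was above 0 within each layout. Over all genes, 288 had thrombus above spleen in every sample (2.51%) and 290 had it below (2.53%). Of the 50 genes of the layout fit, 42 did not overlap between the tissues, and of the 3 lower genes 2 did not. The calls rest on these same values, so the counts for called genes describe them and add no support. In simulated counts for the same genes and samples, the test recovered 48% of genes changed 8-fold and 18% of those changed 4-fold. Leaving out thrombus 2 left all 17 genes called, among 21. Leaving out spleen 2 left 6 called, all among the 17, and leaving out spleen 3-4 left 8, of which 7 were among the 17. Coq10b, Csrnp1, Hilpda, Pcsk1, Tgif1 and Vps37b were called whichever of the 7 samples was left out.

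**Figure D2:**
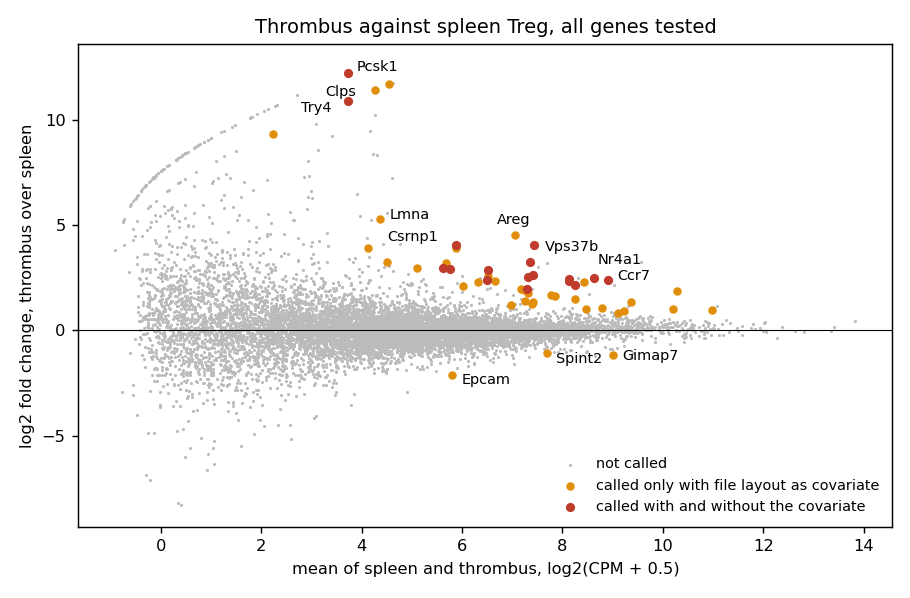
Log2 fold change of thrombus over spleen (vertical axis) against the mean of the tissue means as log2(CPM + 0.5) (horizontal axis) for the 11462 genes tested, 1 point per gene. The 17 genes called in both fits (red) all lie above 0, and of the 36 genes called only in the layout fit (orange) 3 lie below 0.

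**Figure D3:**
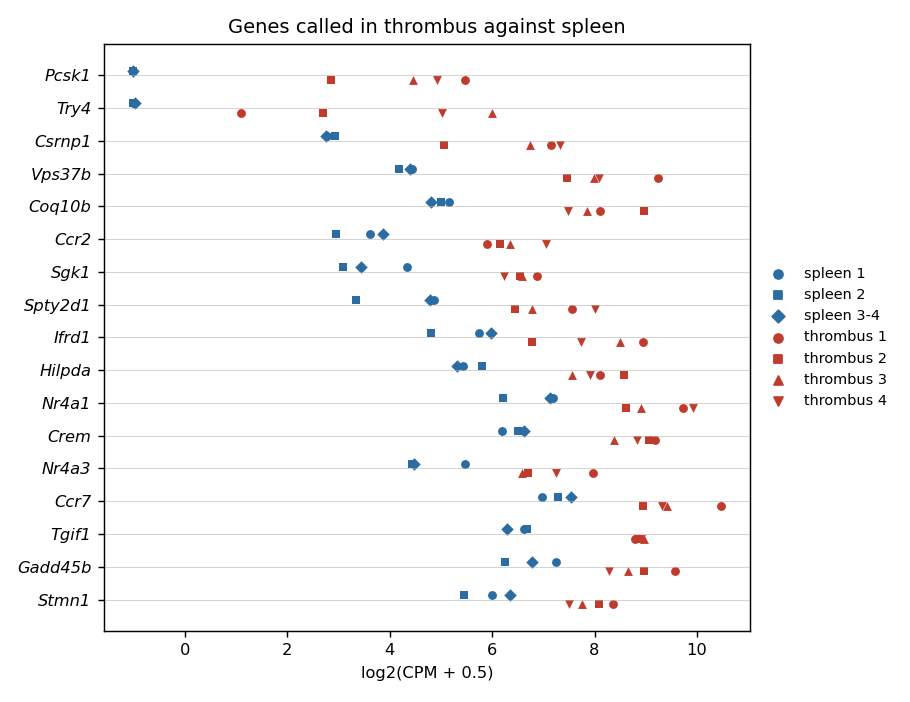
Log2(CPM + 0.5) of the 17 called genes in each spleen sample (blue) and thrombus sample (red), with a symbol for each sample number. In every row the 4 thrombus samples lie to the right of the 3 spleen samples.

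Immediate early and antigen receptor induced genes held 4 of the 17 calls and 10 of the 50. Of 32 genes on this list, all tested, 27 had a log2 fold change above 0, with a median of 1.33 (all genes: 52.1% above 0, median 0.03). Over all genes, 0.148% were called higher without the layout and 0.436% with it. These values over all genes stand beside every list below. Within the layouts the list median of log2 differences was 0.85, 2.05 and 1.42. The lists named here were drawn up with earlier results of these data known and share genes with each other, so their counts describe them and test nothing.

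Nr4a1, which encodes the nuclear receptor Nur77 and is switched on by antigen receptor signals, had 145, 73.4 and 140.4 CPM in spleen 1, 2 and 3-4. In thrombus 1 to 4 it had 851, 392, 478 and 964 CPM. All 4 thrombus samples were above all 3 spleen samples, with thrombus 1 and 4 the highest. The log2 fold change was 2.49 ± 0.45 (standard error, here and below; edgeR adjusted p = 0.019), a ratio of means of 5.61. Its relative Nr4a3 stood at 44.2, 21 and 21.7 CPM in spleen and 251, 104, 95.5 and 152 CPM in thrombus, a log2 fold change of 2.38 ± 0.45 (edgeR adjusted p = 0.0337). Both calls were lost without spleen 2, without spleen 3-4, without thrombus 1 or without thrombus 4, with adjusted p of up to 0.207 for Nr4a1 and 0.32 for Nr4a3 when 1 sample was left out.

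Gadd45b, a stress sensor that binds upstream MAPK kinases, had 151, 76 and 110.1 CPM in spleen and 764, 502, 401 and 313 CPM in thrombus (log2 fold change 2.14 ± 0.38, edgeR adjusted p = 0.019), and lost its call without spleen 2 or spleen 3-4 (adjusted p up to 0.207). Csrnp1, a nuclear protein induced by Axin, had 6.32, 7.14 and 6.25 CPM in spleen and 142, 32.8, 106 and 159.9 CPM in thrombus (log2 fold change 4.07 ± 0.56, edgeR adjusted p = 0.00193). The spleen samples of Csrnp1 were within 1 CPM of each other, and thrombus 2 was the lowest thrombus sample. In layouts 1 and 3, only 6.91% and 3.23% of the Csrnp1 exon reads were unique to it, against 100% in layout 2, and the annotated span of Cx3cr1 covers it on the same strand. On unique exon reads the Csrnp1 call was lost (log2 fold change 2.23), as it was on intron reads (2.25, adjusted p = 0.785); it held under the other 21 alternatives run. The kit marks no strand, so reads of overlapping genes on either strand cannot be told apart.

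Fosl2 and Junb encode AP-1 subunits and were called in the layout fit. Fosl2 had 19.4, 0.545 and 1.6 CPM in spleen and 173, 60.2, 90.4 and 112 CPM in thrombus, and Junb had 1136, 208 and 273 CPM in spleen and 3044, 952, 1756 and 2035 CPM in thrombus. Spleen 1 was the highest spleen sample for both genes, and its Junb value lay above that of thrombus 2. The layout fit gave log2 fold changes of 5.34 ± 0.65 for Fosl2 (edgeR adjusted p = 0.000183) and 2.26 ± 0.27 for Junb (edgeR adjusted p = 0.000162), against adjusted p of 0.626 and 0.587 without the layout. Both kept the layout-fit call whichever sample was left out.

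Btg2 and Tob2 encode antiproliferative adaptors that recruit the deadenylase complex to messenger RNA. Btg2 had 166, 144 and 166 CPM in spleen and 395, 424, 355 and 617 CPM in thrombus (layout fit 1.46 ± 0.24, edgeR adjusted p = 0.00368). Tob2 had 46.4, 14.1 and 19.9 CPM in spleen and 146, 59.5, 103 and 216 CPM in thrombus (layout fit 2.31 ± 0.48, edgeR adjusted p = 0.0325). Neither gene overlapped between the tissues, and Btg2 varied little within spleen. Ppp1r15a (GADD34), which directs the dephosphorylation of the translation factor eIF2 alpha, had 255, 42.2 and 49.6 CPM in spleen and 723, 512, 614 and 432 CPM in thrombus (layout fit 2.95 ± 0.44, edgeR adjusted p = 0.00506). Spleen 1 was again far above the other spleen samples. In the layout fit, Btg2 lost its call without spleen 2, Ppp1r15a without spleen 3-4 or thrombus 2, and Tob2 whichever of the 7 samples was left out. None of the calls of Btg2, Tob2 and Ppp1r15a held in the fit without the layout (adjusted p = 0.0805, 0.384 and 0.435). Of 23 integrated stress response genes tested, Ppp1r15a was the only one called in either fit.

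Crem encodes a family of cyclic AMP responsive activators and repressors, including the inducible repressor ICER. It had 72.4, 90.1 and 98.6 CPM in spleen and 584, 534, 331 and 452 CPM in thrombus, with the lowest thrombus sample more than 3 times the highest spleen sample (log2 fold change 2.45 ± 0.41, edgeR adjusted p = 0.0106). The call was lost without spleen 2 or without spleen 3-4, on all gene reads (adjusted p = 0.122) and on intron reads (adjusted p = 0.772). Of the 27 cyclic AMP signalling genes on the list, 15 were above 0 with a median of 0.13, and Crem was the only member called in either fit. Rgs2, a regulator of G protein signalling, had 312, 89.2 and 26.3 CPM in spleen and 1231, 1729, 1578 and 942 CPM in thrombus. Its groups did not overlap, but its spleen samples spread widely and it passed neither fit (log2 fold change 3.27 ± 0.68, edgeR adjusted p = 0.184, layout fit 0.198).

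The promoters of the called genes were searched for the cyclic AMP response element TGACGTCA (palindromic, so the same on both strands) in the 250 bases before each start in the RefSeq table of GRCm38.p6, which holds 37 of the 50 genes called higher in the layout fit. It was found in 5 of the 37 genes (13.5%), against 3.11% of the 9086 tested genes with a promoter and 1.77% of all genes in the table. Of the 17 genes called without the layout, 13 have an entry, and 1 of them (7.69%) holds it. The shorter core TGACG or its complement CGTCA, which every full element contains, was found in 20 of the 37 (54.1%), in 8 of the 13 (61.5%), in 30.8% of the tested genes and in 19.8% of all genes. The AP-1 site TGACTCA or its complement TGAGTCA was found in 1 of 37 (2.7%) and 1 of 13 (7.69%), against 3.68% of the tested genes and 5.16% of all genes. A gene counted if any of its starts matched, with 59 starts for the 37 genes, 26 for the 13 and 11583 for the 9086. Per start, the core was in 40.7%, 46.2% and 26.6% of these. The full element was in 8.47%, 3.85% and 2.62%, and the AP-1 site in 1.69%, 3.85% and 2.96%. These matches describe letters in these windows and no binding. The windows below show the 5 matches within called genes, and Nr4a1 as a promoter with 4 cores and no full element, all on the coding strand in GRCm38.p6 and ending before any annotated exon, with matches in capitals.
Pcsk1 chr13:75089704-75089825 (+): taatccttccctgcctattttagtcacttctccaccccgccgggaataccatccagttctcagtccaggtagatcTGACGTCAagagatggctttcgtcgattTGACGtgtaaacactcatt
Areg chr5:91139463-91139598 (+): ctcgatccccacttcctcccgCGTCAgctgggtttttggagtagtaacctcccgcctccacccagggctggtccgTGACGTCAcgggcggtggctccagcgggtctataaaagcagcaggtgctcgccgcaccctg
Btg2 chr1:134079239-134079396 (-): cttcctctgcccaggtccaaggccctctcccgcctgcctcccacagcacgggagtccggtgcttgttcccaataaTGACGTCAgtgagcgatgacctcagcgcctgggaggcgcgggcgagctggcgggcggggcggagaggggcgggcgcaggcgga
Nfkbid chr7:30422280-30422405 (+): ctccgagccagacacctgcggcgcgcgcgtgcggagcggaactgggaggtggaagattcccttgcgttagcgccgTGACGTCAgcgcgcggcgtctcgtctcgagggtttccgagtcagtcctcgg
Ppp1r15a chr7:45526269-45526329 (-): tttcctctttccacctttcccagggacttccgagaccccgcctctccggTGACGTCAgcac
Nr4a1 chr15:101266596-101266845 (+): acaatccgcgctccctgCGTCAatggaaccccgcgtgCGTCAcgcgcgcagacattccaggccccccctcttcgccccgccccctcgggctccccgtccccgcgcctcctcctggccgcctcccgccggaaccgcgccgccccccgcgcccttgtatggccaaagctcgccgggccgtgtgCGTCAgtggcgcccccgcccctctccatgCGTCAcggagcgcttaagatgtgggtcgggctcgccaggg
Counted from the start, the element begins 78 bases upstream in Pcsk1, 61 in Areg, 166 in Btg2, 51 in Nfkbid (at 1 of its 3 starts in the table) and 12 in Ppp1r15a.

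Tgif1, a homeodomain repressor that limits TGF-beta signalling, is one of the 6 genes called whichever sample was left out. It had 98, 102 and 77.5 CPM in spleen and 439.5, 459, 501 and 478 CPM in thrombus, means of 92.7 ± 13.3 (SD, n = 3) and 469 ± 26.1 (SD, n = 4). The log2 fold change was 2.34 ± 0.31 (edgeR adjusted p = 0.00121), and within the layouts the log2 differences were 2.16, 2.16 and 2.65. Ifrd1, a transcriptional co-regulator, had 53.3, 27.6 and 62.5 CPM in spleen and 489.9, 109.5, 359.8 and 214 CPM in thrombus (log2 fold change 2.62 ± 0.48, edgeR adjusted p = 0.0233). Spty2d1, a histone chaperone, had 28.8, 9.65 and 27.1 CPM in spleen and 189, 87.2, 109 and 258 CPM in thrombus (log2 fold change 2.88 ± 0.49, edgeR adjusted p = 0.0106). In both, thrombus 2 was the lowest thrombus sample and spleen 2 the lowest spleen sample. Ifrd1 lost its call without any 1 of spleen 1, spleen 2, spleen 3-4, thrombus 1 or thrombus 3 (adjusted p up to 0.207), and Spty2d1 without spleen 2 or spleen 3-4, on all gene reads (adjusted p = 0.122) and on intron reads (0.785). Bhlhe40, a repressor linked to tissue lymphocytes, had 211, 72.5 and 53.8 CPM in spleen and 480.2, 222, 316 and 382 CPM in thrombus and was called in the layout fit (1.93 ± 0.30, edgeR adjusted p = 0.00204).

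Phosphatases that switch off MAPK signals were called in the layout fit. Dusp4, a nuclear phosphatase of ERK, had 5.04, 2.45 and 5.12 CPM in spleen and 34.4, 13.7, 62.6 and 49.9 CPM in thrombus (layout fit 2.86 ± 0.55, edgeR adjusted p = 0.0206). Dusp10, which acts on p38 and JNK, had 32.6, 35 and 30.2 CPM in spleen and 332, 182, 89.9 and 66.6 CPM in thrombus (layout fit 2.23 ± 0.36, edgeR adjusted p = 0.00372). Neither overlapped between the tissues, and for Dusp10 thrombus 1 was far above thrombus 3 and 4. Dusp14 was also called (2.14 ± 0.36, edgeR adjusted p = 0.00486). None of the 3 passed without the layout (adjusted p = 0.167, 0.0805 and 0.0997). Gem, a small GTPase that restrains calcium channels, had 29.8, 42.1 and 5.81 CPM in spleen and 192, 121, 178 and 136 CPM in thrombus (layout fit 2.79 ± 0.55, edgeR adjusted p = 0.0438). All 4 of these calls were lost without spleen 1 and without thrombus 1. Dusp4, Dusp14 and Gem also lost theirs without thrombus 2, Dusp4 and Gem without thrombus 3, Dusp4 without spleen 3-4 and Gem without thrombus 4.

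Of 25 NF-kB pathway genes tested, 4 were called higher in the layout fit (all genes: 0.436%) and none without it (all genes: 0.148%). Of the 25, 17 were above 0 with a median of 0.22 (all genes: 52.1%, median 0.03). Rel encodes the subunit c-Rel, which Treg need for their development, and had 119, 31.3 and 64.8 CPM in spleen and 268, 214, 225 and 271 CPM in thrombus (layout fit 1.96 ± 0.31, edgeR adjusted p = 0.003). Nfkbid, an atypical nuclear inhibitor, had 125, 58.2 and 131 CPM in spleen and 478, 182, 344 and 322 CPM in thrombus (layout fit 1.64 ± 0.27, edgeR adjusted p = 0.00431). Nfkbia, the main feedback inhibitor and the most abundant gene of the list, had 1439, 1322 and 1330 CPM in spleen and 2696, 2962, 2917 and 2045 CPM in thrombus (layout fit 0.98 ± 0.19, edgeR adjusted p = 0.017). In all 3 the tissues did not overlap, with thrombus on top. Cd83, a surface protein of activated lymphocytes that sits on the same list, overlapped between the tissues and was the other (0.93 ± 0.20, edgeR adjusted p = 0.0456). Without spleen 2, all 4 calls were lost; without spleen 1 or thrombus 1, those of Nfkbid, Nfkbia and Cd83 were lost, without spleen 3-4 or thrombus 3 those of Nfkbia and Cd83, and without thrombus 4 that of Cd83. The sort marker Cd69 itself had 256, 353 and 244 CPM in spleen and 410.2, 831, 524 and 612 CPM in thrombus, 2.09 times higher in mean, and was called in the layout fit (1.06 ± 0.21, edgeR adjusted p = 0.0248) but not without it (adjusted p = 0.578). It kept the call when spleen 1 or thrombus 1 was left out, and lost it without any 1 of the other 5 samples. On intron reads its log2 fold change was -0.29.

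**Figure D4:**
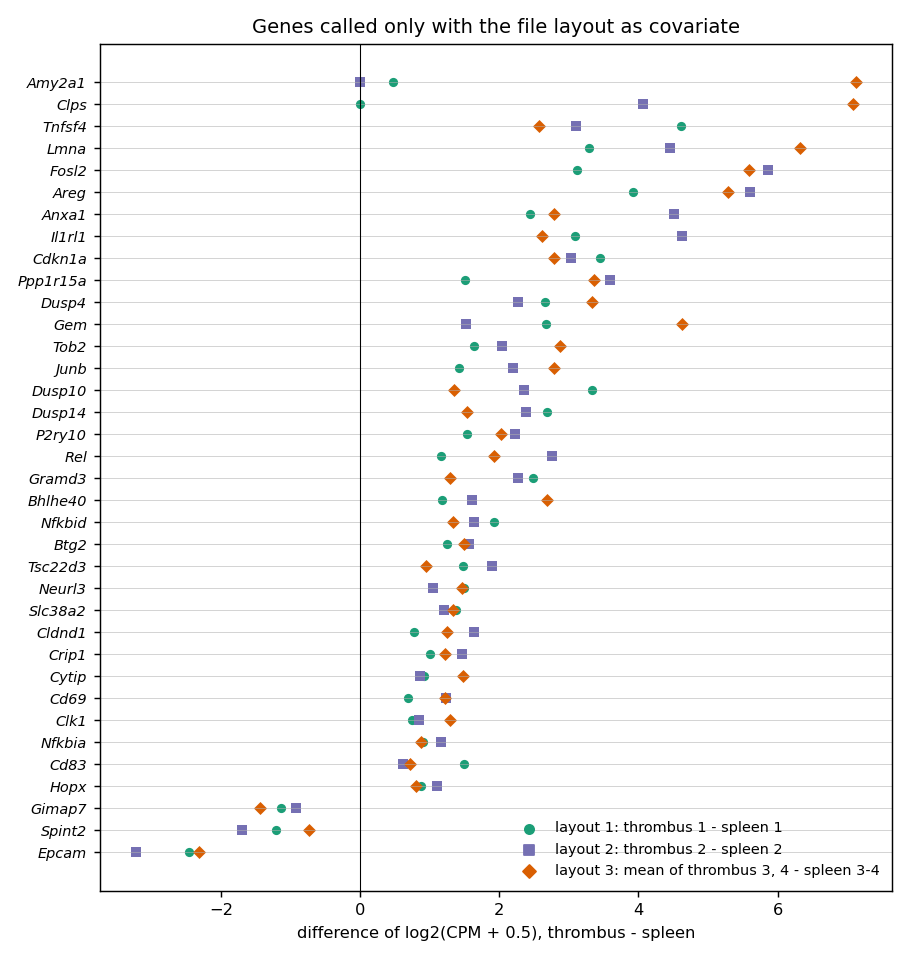
Difference of log2(CPM + 0.5) between thrombus and spleen within each of the 3 file layouts (colour and symbol) for the 36 genes called only in the layout fit. Amy2a1 is at 0 in layout 2 and Clps at 0 in layout 1, the other 31 higher genes are above 0 in each layout, and Gimap7, Spint2 and Epcam are below 0 in each.

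Chemokine receptors gave 2 of the 17 calls. Ccr7, which guides T cells to lymphatic vessels and lymph nodes, had 126, 156 and 186 CPM in spleen and 1414, 495, 684 and 636 CPM in thrombus. All thrombus samples were above all spleen samples, and thrombus 1 was about 2 times the next highest. The log2 fold change was 2.37 ± 0.39 (edgeR adjusted p = 0.00804). Ccr7 is also a gene of migratory dendritic cells and counts in the dendritic list above, whose sum was 13300 CPM in thrombus 2 and 4910 CPM in thrombus 1. The dendritic cell gene Flt3 had 6.62 and 7.50 CPM in thrombus 1 and 2 and at most 0.659 CPM in the other 5 samples. Fscn1, of the same list, had 3.61, 0.682, 0.215 and 0.282 CPM in thrombus 1 to 4 and at most 0.142 CPM in spleen. Zbtb46, also listed, overlapped between the tissues, with 12.4, 7.03 and 4.66 CPM in spleen and 10.6, 1.08, 12.6 and 1.79 CPM in thrombus. Of the 13 dendritic cell genes tested, 12 had a log2 fold change above 0 (all genes: 52.1%). Among the thrombus samples, Ccr7 was highest in thrombus 1 and lowest in thrombus 2. The part of such cells in the result was not tested. Ccr2, the receptor for the monocyte chemoattractant Ccl2, had 11.7, 7.2 and 14.1 CPM in spleen and 59, 71.1, 81.5 and 133 CPM in thrombus (log2 fold change 2.97 ± 0.47, edgeR adjusted p = 0.00557). Monocytes express it too, and the macrophage and monocyte sum was 1910 CPM in thrombus 2 and 89.4 to 128 CPM in the other 3 thrombus samples, against 78.2 to 314 CPM in spleen. Members of that list differed in pattern. Clec4d had no read in spleen and 0.984, 4.26, 0 and 25.8 CPM in thrombus 1 to 4. Csf1r had 10.5, 7.03 and 9.77 CPM in spleen and 4.2, 6.08, 3.0 and 1.6 CPM in thrombus. The Ccr2 call held without thrombus 2, and the part of monocytes in the result was not tested. Without spleen 2, both calls were lost, and Ccr7 also lost it without spleen 3-4.

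Of the 17 chemokine receptors tested, 13 were above 0 with a median of 0.99, and no other member was called. Cxcr4 had 46.9, 25.8 and 7.86 CPM in spleen and 116, 59.8, 39 and 102 CPM in thrombus (edgeR adjusted p = 0.846), and the Th1-associated receptor Cxcr3 had 387, 358 and 265 CPM in spleen and 250.2, 223, 103 and 162 CPM in thrombus (log2 fold change -0.87 ± 0.34, edgeR adjusted p = 0.991, layout fit 0.258). Cxcr3 had all its thrombus values below all its spleen values and did not pass. Of 20 genes of the naive state and lymphoid recirculation, 18 were above 0 with a median of 0.88, and Ccr7 was the only one called. P2ry10, a lysophospholipid receptor of lymphocytes, was called in the layout fit (1.96 ± 0.28, edgeR adjusted p = 0.000823) with 93.4, 34.5 and 62.3 CPM in spleen and 272, 163, 218 and 298 CPM in thrombus, and kept that call whichever sample was left out.

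Of 22 tissue residence genes tested, 5 were called in both fits (Vps37b, Hilpda, Crem, Nr4a1 and Nr4a3) and 6 in the layout fit, which adds Cd69. Over all genes, 0.148% were called higher without the layout and 0.436% with it. Of the 22, 17 were above 0 with a median of 1.02 (all genes: 52.1%, median 0.03). The list overlaps the immediate early one.

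Vps37b, a subunit of the ESCRT-I complex that sorts cargo into multivesicular bodies, had 21.1, 17.6 and 20.5 CPM in spleen and 600.3, 177, 253 and 273 CPM in thrombus. The spleen samples lay close together, and thrombus 1 was more than 2 times any other thrombus sample. The log2 fold change was 4.05 ± 0.48 (edgeR adjusted p = 0.000519). Only 21.1% and 21.8% of its exon reads were unique in layouts 1 and 3, against 100% in layout 2; Hip1r overlaps it on the other strand. On unique exon reads the log2 fold change was 3.47 and the call was lost (adjusted p = 0.883, against 2.21e-15 to 0.883 over all alternatives, intron reads at 0.728 included). The other 6 ESCRT-I genes tested were called in neither fit.

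Hilpda, which encodes a lipid droplet protein that inhibits triglyceride lipolysis, had 42.8, 55.6 and 39.4 CPM in spleen and 274, 379, 188 and 239.5 CPM in thrombus (log2 fold change 2.56 ± 0.36, edgeR adjusted p = 0.00196). It is also on the hypoxia list, of which 16 of 27 tested genes were above 0 with a median of 0.18 and Hilpda was the only one called. Of 32 lipid handling genes, 27 were above 0 with a median of 0.58, and again Hilpda alone was called. Coq10b, a chaperone of coenzyme Q in mitochondria, had 35.4, 31.7 and 27.4 CPM in spleen and 276, 502, 229 and 178 CPM in thrombus (log2 fold change 3.24 ± 0.40, edgeR adjusted p = 0.000714). Thrombus 2 was the highest and no sample overlapped. The other 10 coenzyme Q genes tested were not called, and Coq5 had all thrombus values (48.2, 38.7, 23.9 and 17.5 CPM) below all spleen values (51, 111 and 81.6 CPM; edgeR adjusted p = 0.864).

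Sgk1 encodes a salt and glucocorticoid responsive kinase known for its role in Th17 and Treg balance. It had 19.7, 8.07 and 10.4 CPM in spleen and 117, 93.1, 95.5 and 74.8 CPM in thrombus (log2 fold change 2.90 ± 0.45, edgeR adjusted p = 0.00543). The call was lost without spleen 2 (adjusted p = 0.0669) or spleen 3-4, and on intron reads (adjusted p = 0.785). Tsc22d3 (GILZ), a classical glucocorticoid target, had 118, 80.4 and 91.2 CPM in spleen and 329, 302, 186 and 166 CPM in thrombus and was called in the layout fit only (1.39 ± 0.29, edgeR adjusted p = 0.0409), and it kept that call only without spleen 3-4. Slc38a2, a sodium-coupled amino acid transporter, was called there as well (1.34 ± 0.26, edgeR adjusted p = 0.0229), with thrombus 1 more than 2 times the other 3 thrombus samples (302, 138, 130 and 128 CPM, against 116, 59.9 and 50.7 CPM in spleen). It kept that call only without thrombus 2 or thrombus 4.

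The tissue and effector Treg list held 21 tested genes, 16 of them above 0 with a median of 0.84 (all genes: 52.1%, median 0.03). None was called without the layout (all genes: 0.148%). The layout fit called 3 higher (all genes: 0.436%), Areg, Il1rl1 and Bhlhe40. Areg encodes amphiregulin, an EGF receptor ligand through which Treg promote tissue repair. It had 25.4, 1.31 and 6.34 CPM in spleen and 393, 87.7, 258 and 273 CPM in thrombus. The lowest thrombus sample was more than 3 times the highest spleen sample, and thrombus 2 was the lowest and spleen 1 the highest of their groups, so within the layouts the log2 differences were 3.93, 5.61 and 5.28. The layout fit gave a log2 fold change of 5.13 ± 0.39 (edgeR adjusted p = 1.36e-06) and kept the call whichever sample was left out, whereas the fit without the layout gave 4.53 ± 1.02 (adjusted p = 0.402).

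Il1rl1, the IL-33 receptor, had 10.5, 0.818 and 18.5 CPM in spleen and 93.5, 32.2, 85.1 and 158 CPM in thrombus (layout fit 3.33 ± 0.66, edgeR adjusted p = 0.0298, without the layout 0.384). Mast cells and innate lymphoid cells express it too. Their marker sum was 102 CPM in thrombus 2, which had the lowest Il1rl1 of the thrombus samples, and at most 8.79 CPM in the others. Of its 13 genes, 3 (Mcpt4, Fcer1a and Tpsb2) had no read in the 7 samples, while Il5 had 1682 reads in thrombus 2 and none in spleen. Kit overlapped between the tissues, with 2.34, 1.58 and 0.565 CPM in spleen and 3.28, 0.0568, 0.322 and 0.565 CPM in thrombus. The part of such cells in the result was not tested. The Il1rl1 call was lost when any 1 of spleen 1, spleen 2, thrombus 1, thrombus 2, thrombus 3 or thrombus 4 was left out. Anxa1, a phospholipid-binding mediator of resolution, had 1.35, 3.54 and 1.46 CPM in spleen and 9.51, 91.9, 11.5 and 14.9 CPM in thrombus (layout fit 3.51 ± 0.71, edgeR adjusted p = 0.0294). Thrombus 2 was more than 6 times any other sample. Without it the call was lost, as it was without thrombus 1 or any 1 of the spleen samples. Thrombus 2 also had the highest macrophage and monocyte marker sum, and the part of such cells in the Anxa1 result was not tested. Tnfsf4 (OX40 ligand) had 1 read over all spleen samples and 11.7, 3.81, 18 and 0 CPM in thrombus, a ratio of pooled rates of 851 (95% counting interval 152 to 33700). Thrombus 4 had no read of it. The layout fit called it (edgeR adjusted p = 0.0456), and it lost the call whichever of spleen 1, spleen 2, spleen 3-4, thrombus 1, thrombus 2 or thrombus 3 was left out.

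Pcsk1, which encodes the convertase PC1/3 that cuts prohormones such as proenkephalin, had no read in any spleen sample. Thrombus 1 to 4 held 670, 118, 200 and 317 reads, or 44, 6.7, 21.5 and 29.8 CPM. In reads pooled over each group, the thrombus rate was at least 894-fold that of spleen, taking the limit of a count of 0 (3 reads over the spleen group). Spleen 3-4 held most of the pooled spleen reads, so this is no bound for single samples. In spleen 1 alone, 3 reads were 0.254 CPM, against 6.7 CPM of Pcsk1 in thrombus 2. The test called Pcsk1 (edgeR adjusted p = 0.000519, layout fit 6.22e-05). These limits and intervals cover counting error only, since the reads carry no molecular identifiers. Pcsk1 is also a gene of pancreatic islet cells. The 7 islet genes Ins1, Ins2, Gcg, Iapp, Chga, Chgb and Pcsk2, chosen after these values were seen, together had 10 reads in the 4 thrombus samples and 2 in spleen, and Pcsk1 was highest in thrombus 1, whose pancreatic enzyme sum (26.2 CPM) was within the spleen range; the part of pancreatic RNA in the Pcsk1 result was not tested. Penk, which encodes proenkephalin, was abundant in both tissues, with 552, 864 and 878 CPM in spleen and 298, 577, 839 and 786 CPM in thrombus (log2 fold change -0.29 ± 0.35, called in neither fit).

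Try4, a trypsinogen gene, was the other call with almost no spleen reads, 1 in all. Thrombus 1 to 4 held 25, 105, 588 and 340 reads (1.64, 5.96, 63.1 and 32 CPM), a ratio of pooled rates of 2175 (95% counting interval 389.6 to 86000; edgeR adjusted p = 0.00543). Clps (colipase) and Amy2a1 (an amylase) had 1 spleen read each and were called in the layout fit (edgeR adjusted p = 2.07e-05 and 0.000952), with 0, 7.9, 52.5 and 90.5 CPM and 0.197, 0, 34.2 and 149 CPM in thrombus. Amy2a1 lost that call without spleen 3-4, and Try4 lost its own without spleen 2 or spleen 3-4. All 3 were highest in thrombus 3 and 4, the samples with the highest sum over the 22 pancreatic genes on the list, and these genes also had reads in vein wall (4.82, 65.9 and 70.2 CPM of Clps in vein wall 1, 2 and 3-4). Unique reads made up 11.4% to 44.0% of the Try4 reads and none of the Amy2a1 reads; both genes have close paralogs, among which the deposited counts may be split. On unique reads the Try4 call was lost (adjusted p = 0.191). The part of pancreatic RNA in these results was not tested.

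Of 30 proliferation genes tested, 28 were above 0 with a median of 0.54, and 1 was called. Stmn1, which destabilises microtubules in dividing cells, had 63.5, 43.4 and 81.5 CPM in spleen and 329, 271, 216 and 179.7 CPM in thrombus (log2 fold change 1.99 ± 0.37, edgeR adjusted p = 0.0242). Its groups did not overlap, and the call was lost without any 1 of spleen 1, spleen 2, spleen 3-4 or thrombus 1 (adjusted p up to 0.282). Birc5, which encodes the mitotic protein survivin, had 10.4, 0.0545 and 3.88 CPM in spleen and 53.8, 35, 55 and 8.56 CPM in thrombus (edgeR adjusted p = 0.864). Cdkn1a, the cyclin-dependent kinase inhibitor p21, had 6.82, 14.5 and 2.13 CPM in spleen and 79.1, 122, 11.9 and 26.1 CPM in thrombus, which overlapped between layouts but not within any. The layout fit called it (3.23 ± 0.51, edgeR adjusted p = 0.00274), and it lost the call without thrombus 1. Lmna, which encodes the nuclear lamins A and C, had 3.05, 0.0545 and 0.0394 CPM in spleen and 34.1, 11.7, 19.5 and 92.2 CPM in thrombus (layout fit 7.29 ± 1.42, edgeR adjusted p = 0.0321); the call was lost without spleen 2, spleen 3-4, thrombus 2 or thrombus 3.

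The other genes called higher only with the layout have varied roles. Hopx, a homeodomain protein without DNA binding that has been described in induced Treg, had 401, 392 and 436 CPM in spleen and 738, 845, 884 and 661 CPM in thrombus (layout fit 0.93 ± 0.20, edgeR adjusted p = 0.0456). Cytip, a cytohesin partner that tunes leukocyte adhesion, had 292, 245 and 158 CPM in spleen and 555, 446, 433 and 453 CPM in thrombus (layout fit 1.13 ± 0.22, edgeR adjusted p = 0.0191). Clk1, a kinase of splicing factors, had 415, 532 and 232 CPM in spleen and 699, 954, 466 and 700.2 CPM in thrombus (layout fit 1.03 ± 0.22, edgeR adjusted p = 0.0456). Crip1, Neurl3, Cldnd1 and Gramd3 had layout-fit log2 fold changes of 1.22 ± 0.21, 1.39 ± 0.28, 1.24 ± 0.26 and 1.94 ± 0.32. Each of these 7 calls was lost when at least 1 sample was left out: thrombus 1 for all but Crip1, which lost it without spleen 2 or spleen 3-4. Gramd3 lost it also without spleen 1, and Hopx, Cytip, Clk1, Neurl3 and Cldnd1 without any 1 spleen sample and without thrombus 3; thrombus 2 likewise for Hopx and Cldnd1, and thrombus 4 for Clk1 and Cldnd1.

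The 3 genes lower in thrombus passed only with the layout. Epcam, an epithelial adhesion protein that some T cells carry, had 78.8, 56.2 and 134 CPM in spleen and 14, 5.57, 50.3 and 14 CPM in thrombus. Every thrombus sample was below every spleen sample (layout fit -2.47 ± 0.51, edgeR adjusted p = 0.0311, without the layout 0.547). Spint2, an inhibitor of serine proteases at the cell surface, had 304, 265 and 270.2 CPM in spleen and 132, 81.8, 183 and 143 CPM in thrombus, again without overlap (layout fit -1.20 ± 0.26, edgeR adjusted p = 0.0456). Gimap7, a GTPase of lymphocyte survival, had 87, 1360 and 689.7 CPM in spleen and 39.5, 715, 289 and 224 CPM in thrombus (layout fit -1.20 ± 0.22, edgeR adjusted p = 0.0143). Its level differed more between layouts than between tissues, and only 17.8% and 2.99% of its reads were unique in layouts 1 and 3, where a longer gene model overlaps it. Epcam kept the call only without thrombus 3, Spint2 only without spleen 3-4, and Gimap7 only without spleen 1 or thrombus 2.

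Of 32 lists, 16 held a called gene in the layout fit, and the other 16 held none in either fit. Of 18 Treg identity genes, 11 were above 0 with a median of 0.10, from -0.73 to 0.68. Ctla4, the inhibitory receptor through which Treg act, had 786, 531 and 666 CPM in spleen and 1025, 842, 904 and 1455 CPM in thrombus, without overlap (log2 fold change 0.68 ± 0.31, not called; edgeR adjusted p = 0.323 in the layout fit). Interferon response genes had the lowest median, -0.27, with 11 of 32 above 0, but the layout medians were -0.32, 0.10 and -0.54 and so differed in sign. Of 78 cytosolic ribosomal protein genes, 77 were above 0 with a median of 0.40, and here layout 1 went the other way, with medians of -0.22, 0.47 and 0.56. Oxidative phosphorylation (59 genes, median 0.10), the proteasome (43 genes, 0.01) and antigen receptor machinery (30 genes, -0.01) had medians near that of all genes. Plaur, the urokinase receptor of the coagulation and fibrinolysis list, had 2.2, 0.0545 and 0.565 CPM in spleen and 15.5, 127, 14.9 and 15.2 CPM in thrombus, with thrombus 2 more than 8 times any other sample (edgeR adjusted p = 0.458, layout fit 0.0663).

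**Figure D5:**
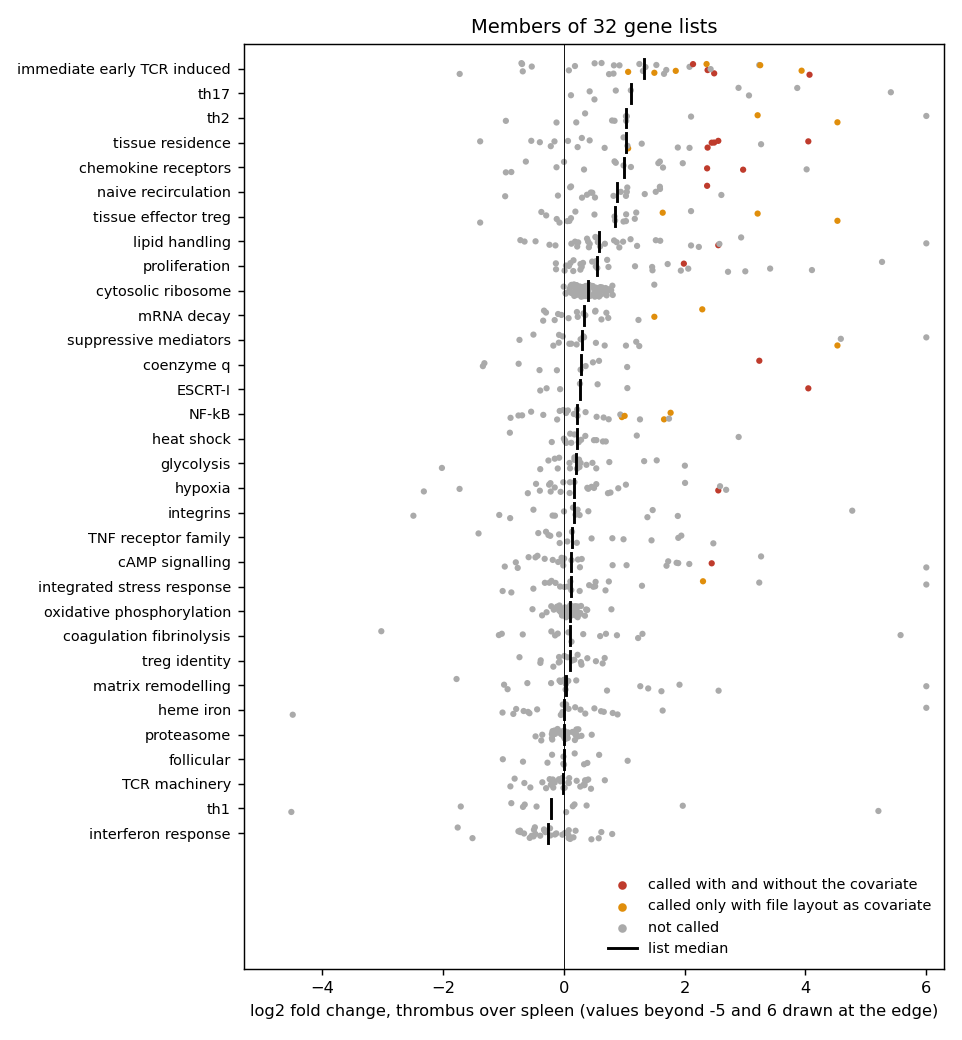
Log2 fold change of thrombus over spleen for each tested member of 32 gene lists, 1 point per gene, with the list median as a black bar and values beyond -5 or 6 drawn at the edge. Called genes (red and orange) all lie above 0, and the immediate early list holds 10 of them.

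Intron reads, which come mostly from unprocessed RNA, were read for the same genes. Of the 17 called genes, 16 had enough intron reads to test, and all 16 had a log2 fold change above 0, from 1.25 to 5.23 with a median of 2.30. Over all genes tested on both kinds of read, 40.8% were above 0 and the median was -0.19. In 7 of the 16 the intron values did not overlap between tissues, against 2.71% of all genes. The intron reads came from the same libraries in which the 17 genes were called, so these counts describe them and add no independent support. With no strand marked, intron reads of overlapping genes cannot be told apart either. None of the 16 passed the test on intron reads, which called 1 gene of 11601 (0.00862%) in either fit. The largest intron log2 fold changes were 5.23 for Ccr2 and 4.34 for Stmn1, and the smallest were 1.25 for Spty2d1 and 1.29 for Coq10b.

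No gene was called between thrombus and vein wall in either fit (0 of 11462; 252 higher and 83 lower at an unadjusted p below 0.05 in edgeR without the layout, 286 and 192 with it), which does not show that the tissues act alike. Vein wall 1, 2 and 3-4 had 726, 298 and 286 CPM of Nr4a1, 112, 264 and 324 CPM of Areg and 62.5, 86.1 and 84 CPM of Ccr2. For each of these 3 genes, every vein wall value was above every spleen value. All 3 were picked from genes called higher in thrombus over these same spleen samples. No share over all genes is given for vein wall against spleen, so this describes the 3 genes only.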

How the data were processed

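RNA was sequenced from sorted Treg of spleen, thrombus and vein wall. Per the labels' protocols, 2 ng of total RNA (RIN above 8) was amplified with SMART-Seq v4 over 12 cycles and 1 ng of cDNA entered Nextera XT libraries, which mark no strand and carry no molecular identifiers. The authors deposited whole-number read counts per gene, not normalized, per the file headers. The build was GRCm38 per the submitters' processing notes; aligner and counter: not given in the sources used here. Total exon reads include reads with more than 1 match (13.6% to 21.8% of them), per the file headers. Genes were joined by name across the 3 file layouts (20469 of 20480 shared names; the other 11 pointed to different places), which kept 90.9% to 94.8% of exon reads. Spleen 3 and 4, and vein wall 3 and 4, were each summed. A count of 0 allows 0.0572 to 0.328 CPM per library (3 reads).

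edgeR 4.0.16 (R 4.3.3) was run with its default low count filter, TMM factors and robust quasi-likelihood F test on tissue over all 10 samples; 11462 genes were tested, and a Benjamini-Hochberg adjusted p below 0.05 was a call. The layout fit adds the file layout. It was chosen after seeing the files, as were the intron reads, the join by gene identifier and the block on spleen and thrombus samples only. CPM were scaled by TMM, and log2 values used a pseudocount of 0.5 CPM. The code was tested on simulated data. DESeq2 1.42.0 and the other alternatives are in the closing section. A rule gave the genes that could be named: those of the sort, all calls, the largest changes with the layout, and the smallest p and highest level in each list; not all of the last are printed. Other genes called with the layout, and Flt3 and Zbtb46, were named after their values were seen. Members and lists were chosen with earlier results of these data known. A result for 1 of these genes is not reported here.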

Additional observations from a re-analysis of the deposited data

Results flagged for a closer look

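In each of these results, 1 of the 4 thrombus samples stood apart from the other 3, as it did in 10 of 76 sets of 4 values. The limit used flags about 1 in 20 sets of independent, normally distributed values. CPM need not be normally distributed, and the sets share samples and genes, so the 10 of 76 cannot be compared with that rate. Thrombus 2 was far above the others in the summed markers of macrophages and monocytes (1910 CPM), of CD8 T and NK cells (1190 CPM), of mast cells, basophils and innate lymphoid cells (102 CPM) and of smooth muscle (93.9 CPM). It was also far above them in Lyz2 (1370 CPM), Plaur (127 CPM) and Anxa1 (91.9 CPM). Thrombus 1 was far above the others in Slc38a2 (302 CPM) and Cytip (555 CPM), and below them in Crip1 (475 CPM).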

How the results depend on the processing

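Against 17 genes higher and 0 lower, DESeq2 gave 137 and 9, no low count filter 78 and 3, every library as its own sample 34 higher, all gene reads 9 higher and intron reads 1 higher. RLE factors, the stricter filter, spleen 3 or spleen 4 alone and the join by gene identifier each gave 17, and spleen and thrombus samples alone or unique exon reads each 13. With a replicate block, the count was 32 higher by number, 41 and 2 on spleen and thrombus samples only, 55 and 13 on every library with numbers 1 to 4, and 50 and 3 by file layout. Same-numbered spleen and thrombus libraries had correlations of deviations of 0.394, 0.259, 0.153 and 0.0884; the last is low and spleen 4 correlated best with thrombus 3 (0.137), so the numbers were not taken to pair the samples. Leaving out 1 sample gave 6 to 34 higher and 0 to 1 lower, and with the layout 33 to 49 higher and 0 to 6 lower. On intron reads the log2 fold change of Cd69 turned to -0.29 (adjusted p = 0.956). The cause of these shifts was not tested. Without TMM factors, 230 genes were above and 324 below without overlap, and on unique exon reads 277 and 285. At this depth, sample number and spread, 2% of genes simulated with a 2-fold change were recovered.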
